A study of Rattus norvegicus with 6 samples.

Results

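The genes described here are 3 chains of laminin-binding integrins (Itga3, Itga6 and Itga7) and 7 genes of the dystrophin-glycoprotein complex of muscle (Dag1, Dmd, Utrn, Sgca, Sgcb, Sgcd and Sgce). They were taken by symbol from a table of 19825 genes, and all 10 had a row and passed the filter on low counts. Messenger RNA was sequenced from H9C2 cells, a line of myoblasts that came from embryonic rat heart and that the labels call cardiomyocytes. The 3 libraries named siPUM2 came from cells given small interfering RNA against PUM2, a Pumilio protein that binds RNA. The 3 libraries named NC came from cells of the same line described as an inhibition control transfected with empty vector, so that the groups also differ in the kind of nucleic acid the labels name. The labels give no time after transfection and do not tell whether a group's libraries were separate cultures, and p-values then measure only the spread between these libraries, which may be technical.

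Muscle cells are held to the laminin of their basement membrane by receptors of 2 kinds. Integrins are pairs of an alpha and a beta chain, and the alpha chains encoded by Itga3, Itga6 and Itga7 give the pair its preference for laminin. Dystroglycan binds laminin through sugars on its outer subunit and binds dystrophin, or its relative utrophin, inside the cell, and these in turn bind actin. The sarcoglycans are membrane proteins that sit beside dystroglycan and stabilise the complex, and loss of several of these proteins causes muscular dystrophy.

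The libraries held 27704702 to 30579237 counts, so that 1 count equalled 0.0327 to 0.0361 CPM (counts scaled to a common library size). Pum2 itself fell from 225 ± 2.67 to 124 ± 4.01 CPM (SD, n = 3 each), a log2 fold change of -0.86 ± 0.0279 (SE, adjusted p = 9.23e-19, edgeR). The share of nuclear ribosomal RNA was 0.102% for siPUM2 3 and between 0.0275% and 0.0510% for each other library, so siPUM2 3 stood apart, and values without it are given where they move a result. The skeletal myoblast marker Myod1 was present at 81.3 CPM in NC, whereas Myf6 was at 0.0568 CPM and Myf5 and Pax7 had no row. The cardiomyocyte genes Myh6, Myh7, Tnni3 and Ryr2 were each at 0.600 CPM or lower, and Nppa had no row. Tnnt2, Nkx2-5 and Gata4 were present. The labelled cell type is therefore matched by 3 of its 7 measured markers, those above 1 CPM.

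Of the 10 genes, 7 rose in siPUM2, Dag1 fell and Itga3 and Sgce did not pass the test. The 8 called genes compare with 28.4% of all 12985 genes tested (15.1% higher and 13.3% lower), and with 37.3% of the 8718 genes whose mean was at least 10 CPM, as the mean of each of the 10 was. The median log2 fold change, siPUM2 minus NC, was 0.17 over the 10 genes and 0.0011 over all genes tested. The changes of Sgcd, Itga7 and Sgcb were called and reached at least 1.2-fold, a size that 8.79% of tested genes reached with a call. In 9 of the 10 genes the libraries of the groups did not overlap, against 39.9% of all genes tested and 4232 of the 8718 at 10 CPM or more. Without siPUM2 3 the counts were again 7 higher and 1 lower. The 10 genes, like the lists below, were chosen with earlier results of these data known. A share above that of all genes can therefore stem from the choice, and these comparisons are a description. In cultures measured in bulk, fewer cells of a type and less RNA per cell cannot be told apart.

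**Figure D1:**
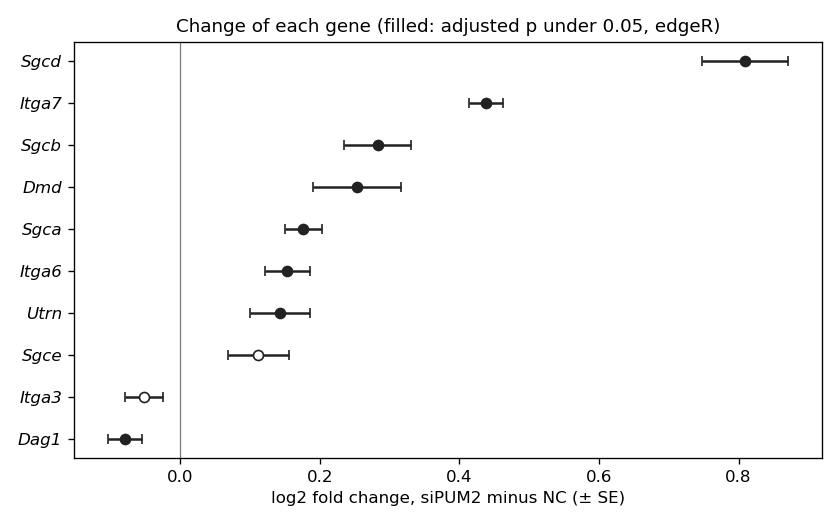
Log2 fold change of each gene, siPUM2 minus NC (x axis, bars show the SE), with genes called at an adjusted p under 0.05 filled and others open. Sgcd stands at 0.81 and Itga7 at 0.44, while Dag1 is the called gene below 0.

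Levels of different genes were compared as FPKM, the authors' fragment counts scaled for gene length and library size. In NC the order was Itga3 (115 ± 4.13 FPKM), Dag1 (94.9 ± 1.65), Itga7 (92.2 ± 0.339), Sgce (26.3 ± 0.679), Sgca (19.4 ± 0.347), Itga6 (13.4 ± 0.610), Sgcb (10.7 ± 0.606), Utrn (2.15 ± 0.0493), Dmd (1.63 ± 0.127) and Sgcd (1.22 ± 0.0115). No pair of neighbours in that order overlapped, but Dag1 and Itga7 came close, the lowest Dag1 library being at 93.0 FPKM and the highest Itga7 library at 92.5 FPKM. In siPUM2 the order changed at both ends. Itga7 (125 ± 1.18 FPKM) stood above Itga3 (111 ± 3.12) and Dag1 (89.6 ± 0.545). At the low end Sgcd (2.13 ± 0.111 FPKM) and Dmd (1.94 ± 0.115) overlapped, and both lay under Utrn (2.36 ± 0.0153). The authors' FPKM use a gene length of 24.2 kb for Utrn, 15.9 kb for Dmd and 12.1 kb for Sgcd, as counts over FPKM show. With these lengths the 3 genes have low FPKM at counts of 407 to 1665 per library. The length used is 6.73 kb for Sgca and 2.08 kb for Sgce. Sgca therefore lies below Sgce in FPKM, although its NC mean was 130 CPM against 54.6 CPM. The order and the shares given below depend on these lengths, which were not checked against the messages.

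**Figure D2:**
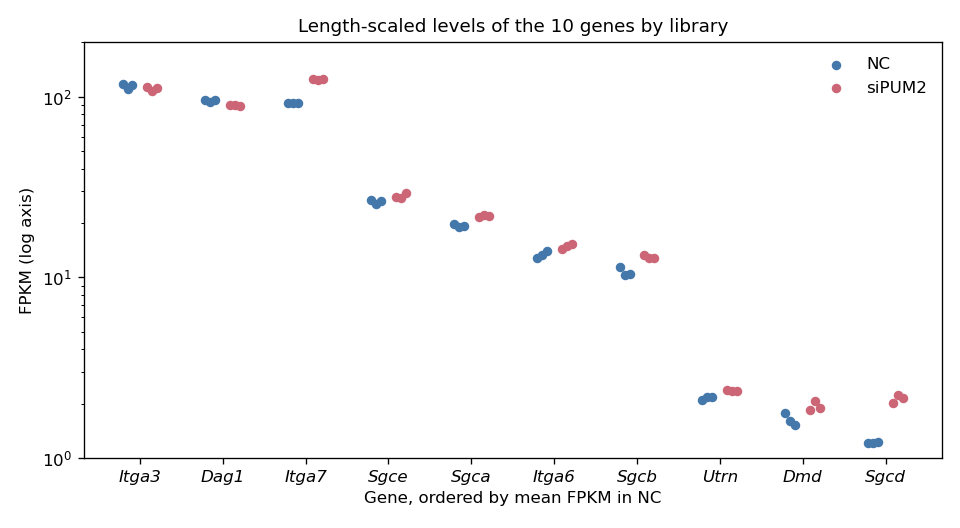
FPKM of the 10 genes in each library (log y axis), ordered along the x axis by their mean in NC, with NC in blue and siPUM2 in red. Itga7 moves from 92.2 FPKM to the top of the order at 125, and Sgcd rises from the bottom at 1.22 to 2.13 FPKM.

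Among the laminin-binding integrin chains, Itga7 rose, Itga6 rose less and Itga3 did not pass the test. Itga7, on chromosome 7, encodes the main laminin-binding alpha chain of skeletal muscle. The NC libraries 1, 2 and 3 had 403, 402 and 403 CPM, and the siPUM2 libraries 1, 2 and 3 had 549, 540 and 548 CPM. Every siPUM2 library was far above every NC library, and the libraries of each group lay close together. The mean rose 1.35-fold, from 403 ± 0.829 to 546 ± 5.19 CPM (SD, n = 3 each), with a log2 fold change of 0.44 ± 0.0241 (SE) and an adjusted p of 7.13e-14 by edgeR. By p it ranked at place 12 among the genes tested.

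Itga6, on chromosome 3, encodes an alpha chain that pairs with the beta 1 or beta 4 chain and is found on epithelial cells as well as myoblasts. Its CPM was 105, 108 and 114 in NC and 117, 123 and 125 in siPUM2. The groups did not overlap, but the highest NC library and the lowest siPUM2 library were close. The rise was 1.11-fold (log2 fold change 0.15 ± 0.0326, adjusted p = 0.000606, edgeR). Itga3, on chromosome 10, encodes the alpha chain of another laminin receptor and was the most abundant of the 10 genes in NC. Its CPM was 672, 628 and 661 in NC and 646, 611 and 635 in siPUM2. The groups overlapped, since NC 2 lay below siPUM2 1 and siPUM2 3, and the log2 fold change of -0.052 ± 0.0276 was not called (adjusted p = 0.168, edgeR). Without NC 2 it was -0.083 and was called, with an adjusted p of 0.0484. All alternatives gave a log2 fold change between -0.083 and -0.030.

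The proportions of the 3 alpha chains within each library followed. Itga7 made up 41.3%, 42.7% and 41.5% of their summed FPKM in NC 1, 2 and 3 and 49.6%, 50.2% and 49.7% in siPUM2 1, 2 and 3. The share of Itga3 was 52.1% ± 0.880 in NC and 44.2% ± 0.542 in siPUM2 (SD, n = 3), and that of Itga6 was 6.07% ± 0.278 and 5.94% ± 0.260. The FPKM ratio of Itga7 to Itga3 was 0.802 ± 0.0275 in NC and 1.13 ± 0.0212 in siPUM2, and the groups did not overlap. An exact permutation test of 3 against 3 libraries (two-sided) gave p = 0.1 for this ratio, the smallest it can give, and 0.13 after adjustment over the 13 proportions and sums computed. These proportions were chosen after the values were seen.

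**Figure D3:**
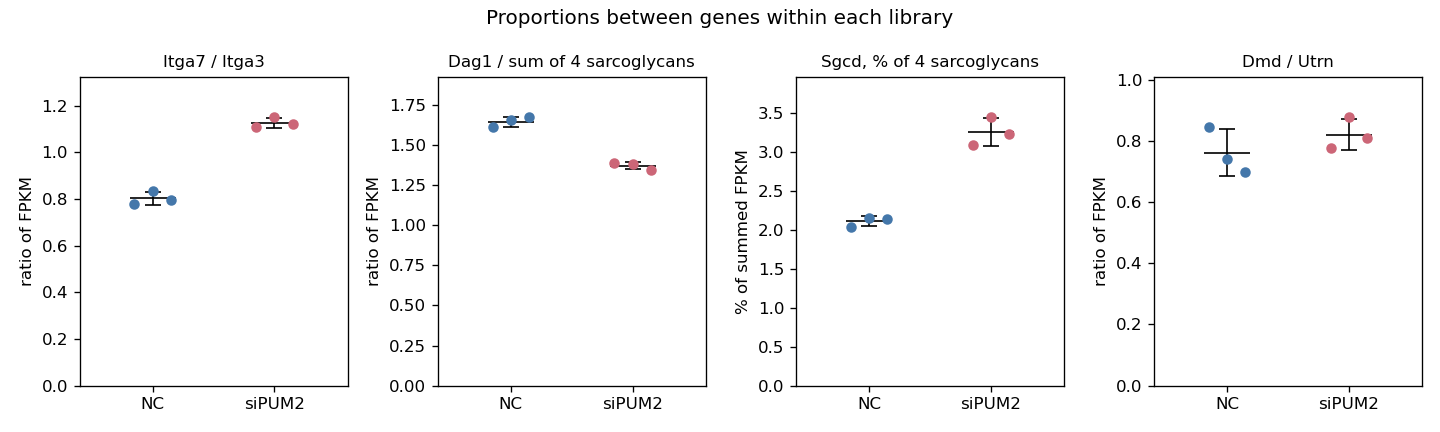
Ratios of FPKM and the share of Sgcd in the summed FPKM of 4 sarcoglycans (y axes from 0), by library, with the mean and SD of each group as black bars. The groups are apart in the first 3 panels and overlap for Dmd over Utrn.

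Dystroglycan was the gene of this set that fell. Dag1, on chromosome 8, encodes a single precursor that is cut into the outer alpha and the membrane-spanning beta subunit. The NC libraries had 612, 595 and 612 CPM, and the siPUM2 libraries 576, 573 and 571 CPM. All siPUM2 libraries were below all NC libraries, by a small step. The fall was 1.06-fold (log2 fold change -0.079 ± 0.0242, adjusted p = 0.0140, edgeR), and it was called under all 18 refitted alternatives, with adjusted p from 0.0012 to 0.0483. The FPKM ratio of Dag1 to the 4 sarcoglycans together was 1.65 ± 0.0310 in NC and 1.37 ± 0.0232 in siPUM2, and that of Dag1 to Itga7 was 1.03 ± 0.0150 and 0.719 ± 0.00668. Each gave the smallest permutation p of 0.1 (exact, two-sided; 0.13 adjusted over the 13).

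Of the sarcoglycans, Sgcd, Sgcb and Sgca rose and Sgce did not pass the test. Delta-sarcoglycan, encoded by Sgcd on chromosome 10, forms the core of the sarcoglycan complex with the beta subunit in skeletal, cardiac and smooth muscle. It had 407, 443 and 455 counts in NC 1, 2 and 3 and 683, 749 and 757 counts in siPUM2 1, 2 and 3. In CPM these were 14.6, 14.7 and 14.8 against 24.3, 27.0 and 26.0. The NC libraries were nearly equal, and the lowest siPUM2 library was well above them. The rise of 1.75-fold (log2 fold change 0.81 ± 0.0613, adjusted p = 4.10e-11, edgeR) was the largest among the 10 genes. It was 0.80 without siPUM2 3, and 0.50 on log2(FPKM + 1), a scale that understates changes of low genes.

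Beta-sarcoglycan, encoded by Sgcb on chromosome 14, is the partner of the delta subunit in that core. Its CPM was 49.2, 44.4 and 44.9 in NC and 57.5, 55.5 and 55.5 in siPUM2. The groups did not overlap, NC 1 being the highest control, and the gene rose 1.22-fold (log2 fold change 0.28 ± 0.0482, adjusted p = 4.47e-05, edgeR). Alpha-sarcoglycan, encoded by Sgca on chromosome 10, is restricted to striated muscle in the body. Its CPM was 133, 129 and 129 in NC and 146, 149 and 147 in siPUM2. All siPUM2 libraries were higher, and the rise was 1.13-fold (log2 fold change 0.18 ± 0.0271, adjusted p = 1.07e-05, edgeR).

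Epsilon-sarcoglycan, encoded by Sgce on chromosome 4, is the widely expressed relative of the alpha subunit. Its CPM was 56.0, 53.2 and 54.7 in NC and 58.1, 57.4 and 61.6 in siPUM2. The siPUM2 libraries were all higher, siPUM2 3 the most, but the log2 fold change of 0.11 ± 0.0438 was not called (adjusted p = 0.0559, edgeR). With limma voom and with the length trend of each library removed, adjusted p was 0.0403 and 0.0373, so the call depended on the method, and without siPUM2 3 the log2 fold change was 0.076 (adjusted p = 0.227). Within the summed FPKM of the 4 sarcoglycans, the share of Sgcd was 2.11% ± 0.0635 in NC and 3.26% ± 0.177 in siPUM2. That of Sgcb was 18.6% ± 0.560 and 19.9% ± 0.580, and that of Sgce was 45.6% ± 0.320 and 43.4% ± 1.06. The sum itself was 57.6 ± 1.59 FPKM in NC and 65.3 ± 0.768 FPKM in siPUM2. These shares and the sum did not overlap between groups, each with an exact two-sided permutation p of 0.1 (0.13 adjusted over the 13). The share of Sgca, 33.7% ± 0.337 and 33.5% ± 0.651, overlapped between groups.

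The sequences upstream of Sgcd and Sgca, of which Sgcd rose most, are shown because both genes rose and both hold an E-box, the letters CANNTG that myogenic and other helix-loop-helix factors bind. They are the 250 bases before the start site from RefSeq, build GRCr8, written 5′ to 3′ on the strand of the gene, with E-boxes in capitals (Sgcd, chr10:32254941-32255190, minus strand; Sgca, chr10:80416076-80416325, minus strand).
Sgcd: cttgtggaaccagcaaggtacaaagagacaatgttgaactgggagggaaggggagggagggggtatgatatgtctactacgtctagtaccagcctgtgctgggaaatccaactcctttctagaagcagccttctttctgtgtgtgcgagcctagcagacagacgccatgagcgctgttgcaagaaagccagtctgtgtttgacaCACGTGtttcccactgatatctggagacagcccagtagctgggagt
Sgca: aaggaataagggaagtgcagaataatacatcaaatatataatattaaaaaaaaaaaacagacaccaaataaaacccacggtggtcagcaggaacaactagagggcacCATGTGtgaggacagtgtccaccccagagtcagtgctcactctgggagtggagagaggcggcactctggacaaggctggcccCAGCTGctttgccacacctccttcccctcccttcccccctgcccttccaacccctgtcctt
Such windows were found for 7 of the 10 genes, 9 windows in all. They were searched on both strands for the E-box, the CArG box, the MEF2 site, the letters GGGCGG of the GC box and the letters CATTCC of the muscle element called M-CAT, and no match overlapped a match of another motif. Sgcd held 1 E-box, from base 205 to 210 of the window, and Sgca held 2, from 108 to 113 and from 190 to 195. An E-box was present in 65.5% of all 33469 windows of this length, so its presence is common. Sgcb, which also rose, had no match to any of the 5, and Itga3, which was not called, had 1 E-box, 1 M-CAT and 2 GC boxes. Sgce held 2 GC boxes, present in 30.5% of windows, and Utrn held 1 M-CAT, present in 12.1%. A match describes the letters and was not tested as a binding site.

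Dystrophin and its relative utrophin, which join dystroglycan to actin, both rose slightly. Dmd, on chromosome X, had 28.2, 25.6 and 24.1 CPM in the NC libraries, against 29.5, 33.0 and 30.4 CPM in siPUM2. NC 1 lay just under siPUM2 1, and the groups did not overlap. The rise was 1.19-fold (log2 fold change 0.25 ± 0.0628, adjusted p = 0.00272, edgeR). It was not called on FPKM, where adjusted p was 0.0701 on log2(FPKM + 1), 0.0807 on log2(FPKM + 0.1) and 0.150 without a filter, and the log2 fold change on log2(FPKM + 1) was 0.16.

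Utrn, on chromosome 1, encodes the protein that takes the place of dystrophin in many tissues outside muscle and in immature muscle. Its CPM was 50.7, 52.6 and 52.7 in NC and 57.8, 57.2 and 57.2 in siPUM2. All siPUM2 libraries were higher and lay close together, and the rise was 1.10-fold (log2 fold change 0.14 ± 0.0430, adjusted p = 0.0126, edgeR). This call was lost without NC 1 (adjusted p = 0.0857) and on FPKM (0.145 to 0.209). It was also lost when the trend of each library with gene length was removed, where the log2 fold change was 0.077 (adjusted p = 0.179). Utrn has the greatest length of the 10 genes. Under that removal Dmd had a log2 fold change of 0.21 (adjusted p = 0.0134) and Sgcd one of 0.77. The FPKM ratio of Dmd to Utrn was 0.762 ± 0.0768 in NC and 0.821 ± 0.0511 in siPUM2, and the groups overlapped (exact permutation p = 0.4, two-sided; 0.473 adjusted over the 13).

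Dmd is known to be read from several promoters that give full-length and short proteins, and counts per gene do not tell them apart. RefSeq windows of Dmd lay in 2 places 2.07 Mb apart on chromosome X, and the first window at each place is shown because the counts do not separate messages from either. They are written 5′ to 3′ in build GRCr8, with the CArG box, the motif of serum response factor, and an E-box in capitals (first place, chrX:51205836-51206085, plus strand; second place, chrX:53278763-53279012, plus strand).
Dmd, first place: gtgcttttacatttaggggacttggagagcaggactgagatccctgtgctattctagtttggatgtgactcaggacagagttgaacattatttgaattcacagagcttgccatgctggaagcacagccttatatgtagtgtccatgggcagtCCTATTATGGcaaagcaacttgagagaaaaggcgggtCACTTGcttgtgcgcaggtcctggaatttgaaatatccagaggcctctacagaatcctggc
Dmd, second place: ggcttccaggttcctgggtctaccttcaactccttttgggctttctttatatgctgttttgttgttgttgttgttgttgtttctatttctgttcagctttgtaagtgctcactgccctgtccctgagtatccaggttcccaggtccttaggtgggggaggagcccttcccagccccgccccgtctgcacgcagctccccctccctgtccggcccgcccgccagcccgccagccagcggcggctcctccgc
The window at the first place held a CArG box from base 153 to 162, a motif found in 1.50% of all windows, and an E-box from base 190 to 195. The window at the second place held neither, and it held 2 GC boxes, from 175 to 180 and from 213 to 218. The MEF2 site, found in 2.96% of all windows, matched none of the 9 windows.

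**Figure D4:**
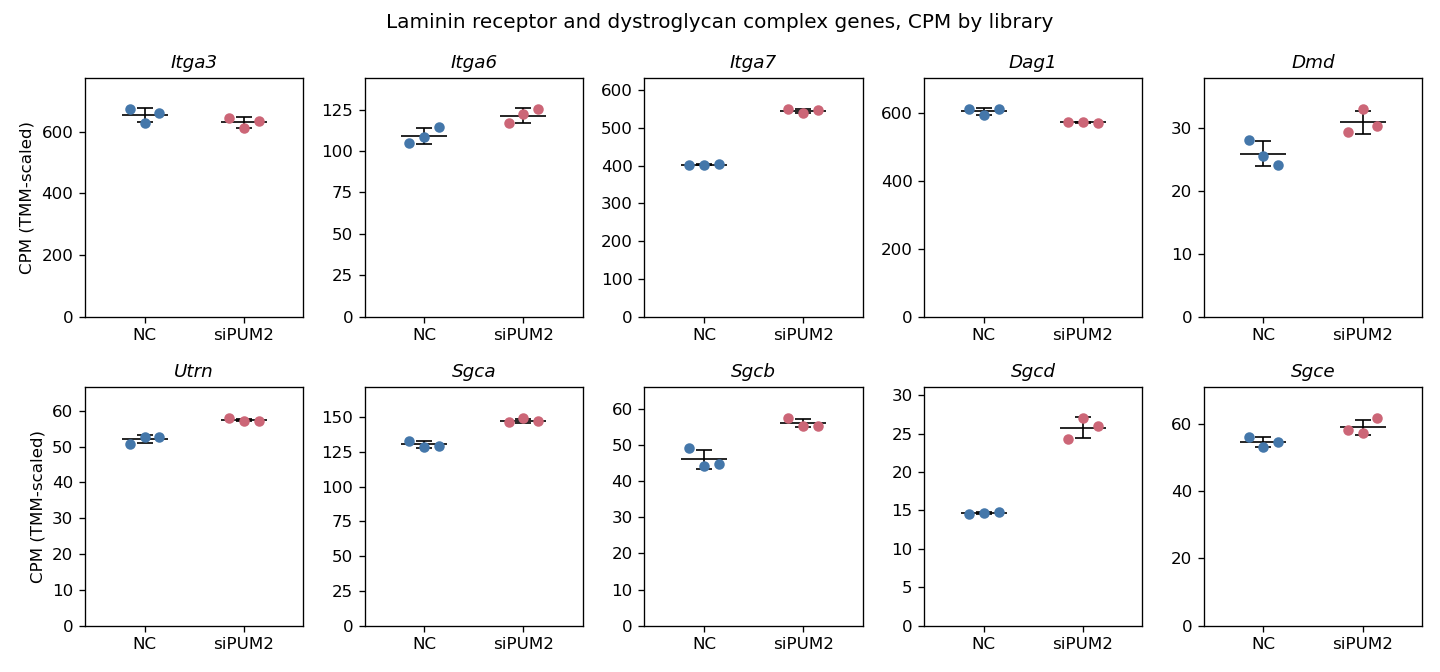
CPM of each gene in each library (y axes from 0), NC in blue and siPUM2 in red, with the mean and SD as black bars. The groups overlap for Itga3 and are apart for the other 9 genes, most widely for Sgcd and Itga7.

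The genes with the profile most like that of Itga7, the riser with the lowest p, were taken by the smallest distance between centred log2 CPM over the 6 libraries, among 8469 named genes of at least 10 CPM. They were Ppp3r1 (distance 0.0357, log2 fold change 0.46), Ginm1 (0.0413 and 0.42) and Dmpk (0.0471 and 0.46). Those nearest to Dag1 were Supt5h (0.0142 and -0.073), CYTB (0.0174 and -0.087) and Gosr2 (0.0174 and -0.085). These distances are a description.

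Among other genes listed with the dystrophin complex, which include the caveolar genes Cavin4 and Cav3, Dtnb and Cavin4 fell. Of 13 listed genes 9 had a row and 8 were tested, of which 2 fell and 6 did not pass, and the median log2 fold change was -0.37. The 25.0% called is near the 28.4% of all genes tested, so the count itself does not set these genes apart. Dtnb, which encodes beta-dystrobrevin, a cytoplasmic relative of dystrophin, had 66.0, 71.6 and 71.4 CPM in the NC libraries, against 52.4, 51.9 and 54.2 CPM in siPUM2. The siPUM2 libraries were all well below NC, and the fall was 1.32-fold (log2 fold change -0.40 ± 0.0423, adjusted p = 2.62e-08, edgeR). Cavin4, a muscle protein of caveolae, was lower in siPUM2, 3.17 ± 0.350 against 4.27 ± 0.286 CPM, a 1.34-fold fall (adjusted p = 0.0251, edgeR). The fall was no longer called without NC 1 (0.0775), NC 2 (0.0903) or siPUM2 1 (0.128). Cav3, the muscle caveolin and the list's most abundant gene by FPKM, was at 114 ± 2.22 and 119 ± 2.75 CPM and was not called (adjusted p = 0.139). Named after its values were seen, sarcospan (Sspn) was at 0.610 CPM in NC and 0.304 CPM in siPUM2 and was not called (adjusted p = 0.0627).

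Partners of the laminin-binding integrins in the membrane rose in 2 cases and fell in 2, among 9 tested of 10 listed. The median log2 fold change of 0.11 was the value of Cd9, at 0.658 CPM in NC and not called (adjusted p = 0.84, edgeR). Itgb4 (0.836 CPM in NC) and Bcam (0.203 CPM) were also low and not called. The share called was 44.4%, against 28.4% of all genes tested and 37.3% of those at 10 CPM or more. Cd9, Itgb4 and Bcam, named after their values were seen, lay below that level. Itgb1, the beta 1 chain with which all 3 alpha chains pair, had 1897, 1920 and 1892 CPM in the NC libraries, against 2383, 2409 and 2341 CPM in siPUM2. All siPUM2 libraries were higher, and the rise was 1.25-fold (log2 fold change 0.32 ± 0.0239, adjusted p = 2.81e-11, edgeR). Cd151, a tetraspanin that binds these integrins directly, rose 1.24-fold from 979 ± 19.5 to 1211 ± 9.93 CPM (adjusted p = 1.03e-10). Cd82, another tetraspanin, fell 1.12-fold from 236 ± 2.40 to 211 ± 4.37 CPM (adjusted p = 1.93e-05). Rpsa, a ribosomal protein also described as a laminin receptor and named after its value was seen, fell 1.07-fold (adjusted p = 0.00455), and its many copies in the genome make the counting uncertain. Cd63, the most abundant by FPKM, was at a log2 fold change of -0.033 (adjusted p = 0.357).

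Of the 18 enzymes listed for the laminin-binding sugar of dystroglycan, all tested, 3 rose and 15 did not pass, and their median log2 fold change was 0.042. The 16.7% called is below the 28.4% of all genes tested and the 37.3% of those at 10 CPM or more. All of these calls were higher, whereas 15.1% of all genes tested were called higher and 13.3% lower. B4gat1, which adds glucuronic acid to that sugar chain, was 1.17-fold higher in siPUM2 at 61.6 ± 1.32 CPM, against 52.7 ± 1.80 (adjusted p = 0.000206, edgeR). Pomgnt1 and Pomgnt2, which add N-acetylglucosamine to O-linked mannose, rose from 232 ± 7.64 to 251 ± 3.16 CPM (adjusted p = 0.00207) and from 9.31 ± 0.274 to 11.2 ± 0.211 CPM (0.0151). The call of Pomgnt2 was lost without NC 2 (0.0523) or NC 3 (0.0504), and the adjusted p of Pomgnt1 reached 0.0576 over the alternatives.

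Laminin chains and other basement membrane ligands went both ways, with 4 higher, 2 lower and 6 not called among 12 tested of 15 listed, and a median log2 fold change of -0.0044. The 6 calls among 12 ligands, or 50%, stand beside 28.4% of all genes tested and 37.3% of those at 10 CPM or more. Lamb2, the beta 2 chain of muscle laminins, had 294, 296 and 300.3 CPM in the NC libraries, against 366, 352 and 362 CPM in siPUM2. The groups were well apart, and the rise was 1.21-fold (adjusted p = 1.75e-09, edgeR). Nid2, a nidogen that links laminin to collagen IV, rose from 97.8 ± 5.11 to 137 ± 3.64 CPM (adjusted p = 4.37e-12). Its relative Nid1, the list's most abundant gene by FPKM, rose 1.05-fold (adjusted p = 0.0157), and this call was lost without NC 1 (0.0687) or siPUM2 2 (0.0710). Lama4, a laminin alpha chain, fell 1.19-fold (22.6, 23.4 and 25.1 CPM in NC, 18.4, 21.7 and 19.9 CPM in siPUM2, adjusted p = 0.00475), with an adjusted p of up to 0.122 over the alternatives. The count of called ligands fell from 6 to 3 without NC 1 or without siPUM2 2. Lama2, the alpha chain of adult muscle laminin and named after its counts were seen, had 4 counts over the 6 libraries and was not tested.

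Adhesion proteins that link integrins to actin also went both ways, with 4 higher, 4 lower and 6 not called among 14 tested of 16 listed, and a median log2 fold change of -0.0051. Calls made up 57.1% of the tested linkers, beside 28.4% over all genes and 37.3% of those at 10 CPM or more. Tns1 and Tns3, tensins that bind integrin tails and actin, rose 1.29-fold (384 ± 9.87 to 495 ± 4.02 CPM, adjusted p = 5.81e-12, edgeR) and 1.14-fold (160.2 ± 0.628 to 183 ± 4.21 CPM, adjusted p = 1.93e-06). Lims2, a partner of integrin-linked kinase, rose 1.31-fold from 32.0 ± 2.03 to 42.0 ± 1.12 CPM (adjusted p = 3.93e-06). The 4 that fell are named after their values were seen. Zyx, which encodes the focal adhesion protein zyxin, fell from 676 ± 6.83 to 601 ± 12.6 CPM (adjusted p = 4.52e-06, edgeR), next by p after Lims2. Tln2, a talin that joins integrin tails to actin, fell from 45.9 ± 1.51 to 38.1 ± 0.601 CPM (adjusted p = 0.000215). Lims1, the relative of Lims2, fell from 178 ± 3.46 to 163 ± 4.92 CPM (adjusted p = 0.00116). Bcar1, an adaptor of focal adhesions, had a log2 fold change of -0.071 (adjusted p = 0.0412), and leaving out any library except siPUM2 1 ended its call (0.0530 to 0.150). Integrin-linked kinase itself, Ilk, was the most abundant by FPKM and was at a log2 fold change of -0.053 (adjusted p = 0.0963).

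**Figure D5:**
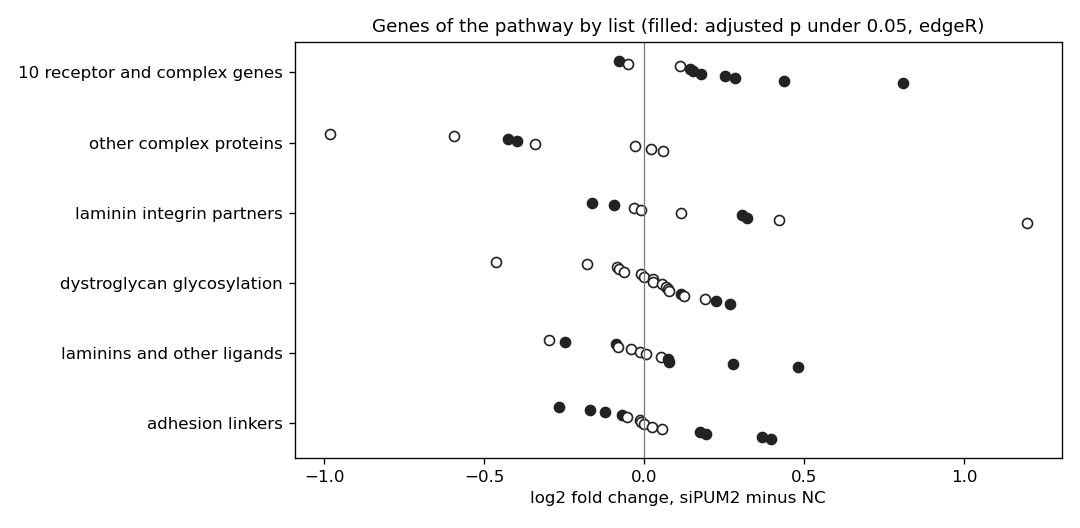
Log2 fold change, siPUM2 minus NC (x axis), of each tested gene in the 10-gene set and in 5 lists of related genes, filled where called at an adjusted p under 0.05. The 10-gene set has 7 filled points above 0 and 1 below, whereas the adhesion linkers have 4 on each side.

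Marker lists of other cell types were measured beside these changes. The summed CPM of 7 measured cardiomyocyte markers was 304 to 362 in NC and 466 to 520 in siPUM2, nearly all of it Tnnt2, which rose from 298 to 474 CPM (adjusted p = 2.86e-12, edgeR). The other 3 tested cardiomyocyte markers were lower in siPUM2 and not called (Nkx2-5 19.7 and 17.9 CPM, Gata4 10.4 and 9.52, Myh6 0.600 and 0.396), and the median log2 fold change of the 4 was -0.13. The summed CPM of the 8 skeletal myoblast and myotube markers with a row was 338 to 349 in NC and 355 to 380 in siPUM2, led by Cdh15. Of the 6 tested, Cdh15 and Mymk rose, Myog, Myh3 and Mymx fell and Myod1 was not called, and Myog went from 20.1 to 9.23 CPM (adjusted p = 1.86e-09, edgeR). The 6 fibroblast markers summed to 9290 to 9435 CPM in NC and 8872 to 9205 CPM in siPUM2, nearly all Col1a1. Col1a1 and Pdgfrb fell (log2 fold change -0.084 and -0.082, adjusted p = 0.0116 and 0.0329, edgeR), whereas Thy1 rose 1.24-fold from 713 ± 5.97 to 881 ± 13.4 CPM (adjusted p = 9.02e-11). Pdgfra, Dcn and Lum were at 0.169 CPM or lower in each group. The 3 measured macrophage markers summed to 36.8 to 37.6 CPM in NC and 38.6 to 40.8 in siPUM2, nearly all Cd14. Ptprc and Adgre1 of that list had no row. Endothelial markers summed to 2.64 CPM or lower, Schwann cell markers to 1.08 or lower and epithelial markers to 0.178 or lower in every library. The part of these shifts in the changes of the receptor and complex genes was not tested.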

How the data were processed

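Polyadenylated RNA of 6 libraries was captured and sequenced as directional paired-end libraries, per the labels' protocols. The authors deposited raw whole-number counts for each gene and FPKM rounded to 2 decimals, with 1 column for each library. Per the submitters' processing notes, HISAT2 and DESeq2 were used with the build mRatBN7.2. No counting program, strand setting, annotation or version is given in the sources used here.

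Counts were tested with edgeR 4.0.16 in R 4.3.3 (quasi-likelihood, TMM factors 0.995 to 1.003, filterByExpr, group as the only term). The filter left 12985 genes. Benjamini-Hochberg adjustment ran over these genes, with calls at an adjusted p under 0.05. Errors of log2 fold changes are SE from the quasi-likelihood F, those of levels are SD. The test was also run on simulated data, with values not reported here. Such a check cannot show whether a group's libraries were separate cultures.

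The 10 genes and all lists were chosen with earlier results of these data known. From each list the text names the 3 called genes with the lowest p and the gene with the highest FPKM. Others are named as chosen afterwards, and some listed genes are not reported here. Alternatives were other scalings, filters and thresholds, DESeq2 1.42.0, limma 3.58.1 voom, log2(FPKM + 1) and log2(FPKM + 0.1) with limma, a replicate block, each library left out, and, chosen after seeing the data, a fit with the gene-length trend taken out of every library. No pair of libraries within a group differed by sampling noise alone (chi-square per degree of freedom 2.07 to 3.83).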

Additional observations from a re-analysis of the deposited data

How the results depend on the processing

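Over 18 refits, 180 fold changes of the 10 genes were compared with those reported, and 167 kept direction and side of the threshold. None turned direction. On unfiltered log2(FPKM + 1), 4 of the 10 genes were called higher, and over all genes 1160 higher and 1086 lower. On that scale Itga6 (0.14), Dmd (0.16) and Utrn (0.096) lost their calls. Filtered, log2(FPKM + 1) gave Dmd 0.16 and Utrn 0.096, and log2(FPKM + 0.1) gave 0.24 and 0.13, all uncalled. The ligand list had 3 calls on each FPKM scale. Removing the length trend took the call from Utrn (0.077) and gave one to Sgce (0.12), as did limma voom (0.11). At an adjusted p under 0.01 the genes called lower were 0 of the 10 and 1126 in all, with 1 call among other complex proteins and 3 among ligands. With at least 1.2-fold required, 3 of the 10 were called higher and 0 lower, 729 genes in all higher and 413 lower, and calls were 2 for integrin partners, 1 for glycosylation, 2 for ligands and 3 for linkers. DESeq2 called 1 other complex protein. The causes were not tested, apart from the thresholds' own construction.

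Leaving out 1 library gave 6 to 7 genes of the 10 higher and 1 to 2 lower. There were 1 to 3 calls in the list of other complex proteins, which includes Cavin4, and 3 to 7 among ligands. Log2 fold changes were -0.083 to -0.030 for Itga3 and 0.12 to 0.15 for Utrn. Deviations of same-numbered libraries had correlations of 0.0027 to 0.0342, and not every library correlated best with its own number. With 3 libraries in each group such correlations cannot exclude a shared batch. The numbers are shared by title only. The replicate block gave 8 of the 10 higher, adding Sgce (0.11), with 1984 genes higher and 1747 lower in all. The lowest count of the 10 genes in a library was 407, whereas Sspn had 80 counts over all 6 libraries.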
